A study of Mus musculus with 2 samples.

Results

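MHC class II presentation genes were followed across immune cells of mice described as infected, as 10 of the 32285 genes counted. The 10 are Ciita, the chains H2-Aa, H2-Ab1 and H2-Eb1, the invariant chain gene Cd74, the DM genes H2-DMa, H2-DMb1 and H2-DMb2, and the DO genes H2-Oa and H2-Ob. They were chosen by name from the pathway and all 10 were found in the counts. Their unique molecular identifiers (UMIs, each standing for 1 captured transcript) were summed in 5 classes of cell barcodes set by marker UMIs. B barcodes held Cd79a and Ms4a1 and fewer than 5 UMIs of Mzb1, and plasma barcodes held at least 5 UMIs of Mzb1. A gate named for conventional dendritic cells took barcodes with Flt3 and at least 10 UMIs of H2-Aa, and is called the Flt3/H2-Aa gate here. Monocyte barcodes held at least 5 UMIs of Lyz2 and no C1qa, and C1q macrophage barcodes held at least 5 UMIs of C1qa and C1qb together.

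The mice were C57BL/6, aged 6 to 12 weeks, and were infected with LCMV-cl13, a lymphocytic choriomeningitis virus strain able to persist in mice. PEP-WT mice carried the wild type Ptpn22 gene, which encodes the phosphatase PEP, and PEP-619WW mice were homozygous for the mouse counterpart of a human PTPN22 allele linked to autoimmunity, made by CRISPR and present in every cell. In the design text both groups were infected and spleens were taken at day 8. By that account the splenocytes of 4 to 5 age and sex matched mice per genotype were pooled. Live CD45+ cells were then sorted for 10x Genomics 3′ single-cell RNA sequencing. Each genotype had 2 deposited sets of counts, called run 1 and run 2, with 1 library per genotype in each. The labels also name liver, the human T cell line Jurkat and cells from a tumor, which differs from the spleens of the design text. The cell number and median genes per cell that the methods give for each genotype are those of run 2 and not of run 1. Run 2 had medians of 1709 genes per barcode in PEP-WT and 1477 in PEP-619WW, and run 1 had 1139 and 1298. Which mice and tissue run 1 came from, and whether both runs belong to the same experiment, is not stated in the sources used here. The tissue of run 2 is not settled either. Its PEP-WT library held 2 B and 0 plasma barcodes, and 249 barcodes with at least 3 of 5 melanocyte genes. This content goes against the spleens of the design text, so the run 2 values cannot be taken as those of infected spleen. The runs were therefore kept apart and not taken as replicates, and no difference between genotypes could be tested. All intervals are exact 95% intervals that cover counting error only. The 3′ tags do not read the Ptpn22 substitution, so the counts do not check the genotype labels.

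MHC class II molecules display peptides from endocytosed proteins to CD4 T cells. CIITA, the product of Ciita, is the master coactivator of the pathway and is held at the conserved X and Y boxes of class II promoters by RFX, CREB and NF-Y. H2-Aa and H2-Ab1 encode the alpha and beta chains of I-A, whereas C57BL/6 mice lack the alpha chain of I-E, so the H2-Eb1 chain has no partner. CD74 guides new chains to endosomes and blocks the groove until it is digested, H2-DM then exchanges its last fragment for peptide, and H2-DO, made mainly in B cells, restrains H2-DM. B cells and dendritic cells carry the pathway constitutively, macrophages and monocytes gain it on activation, and plasma cells lose it when Blimp1, the product of Prdm1, silences Ciita.

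Most of the members lie in the H2 region of chromosome 17 (GRCm38), from H2-Oa at 34092340 to the end of H2-Eb1 at 34316674. Ciita lies on chromosome 16 from 10480059 to 10528418. RefSeq promoters (GRCm38.p6, 250 bases before to 50 after a start) were matched for 7 of the 10 genes, giving 8 promoters. The entries of H2-Ab1, Cd74 and Ciita were not matched. The following sequences are shown because they hold runs like the X and Y boxes at which CIITA is held. Letters of the X box like run AACNNATG and of the Y box (ATTGG) are in capitals. The H2-Aa promoter held no AACNNATG, and TGACGTCA, a different run, is marked there instead. Binding at these runs was not measured. Each sequence is written 5′ to 3′ on the strand of its gene.
H2-DMb2, chr17:34145120-34145171, plus strand: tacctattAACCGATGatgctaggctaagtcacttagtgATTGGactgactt
H2-DMb1, chr17:34153091-34153142, plus strand: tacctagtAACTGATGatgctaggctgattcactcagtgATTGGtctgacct
H2-Ob, chr17:34238812-34238860, plus strand: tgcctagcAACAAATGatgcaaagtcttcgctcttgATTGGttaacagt
H2-Eb1, chr17:34305770-34305820, plus strand: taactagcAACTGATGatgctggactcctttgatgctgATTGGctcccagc
H2-Aa, chr17:34287859-34287905, minus strand: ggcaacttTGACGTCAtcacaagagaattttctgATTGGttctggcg

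AACNNATG followed by ATTGG 20 to 40 bases later stood in the promoters of H2-DMb1, H2-DMb2, H2-Ob and H2-Eb1, and in 53 of 32851 promoters in all (0.161%), both strands searched. Alone, AACNNATG was in 8.86% of promoters, ATTGG in 37.4% and TGACGTCA in 1.79%, and ATTGG was in a promoter of each of the 7 matched genes. The letters were chosen after these promoters had been read, so the counts describe the sequences and test nothing. The windows of H2-DMb1 and H2-DMb2, which lie next to each other and encode alternative DM beta chains, were identical at 45 of 52 bases. Cd74 lies apart from the H2 region, on chromosome 18 from 60803848 to 60812652.

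Run 1 held 14821 PEP-WT barcodes at a median of 2832 UMIs and 8576 PEP-619WW barcodes at 3293 UMIs. Run 2 held 9539 barcodes at 4837 UMIs and 11029 at 3611 UMIs, in the same order. The 10 members took 0.9496% and 0.713% of all UMIs in run 1 and 0.479% and 1.55% in run 2. Between 19 and 49 barcode sequences were shared by any pair of libraries, at most 0.455% of a library. The libraries of run 2 stood apart in content. Barcodes with at least 3 of 5 melanocyte genes numbered 249 in PEP-WT and 25 in PEP-619WW of run 2 and 0 in both libraries of run 1. PEP-WT of run 2 held 2 B and 0 plasma barcodes, against 5839 C1q macrophage barcodes, so B and plasma barcodes were compared in run 1 only.

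The gates were checked against markers of their own and of other cells. In run 1 the Flt3/H2-Aa gate went against its label. Cd79a, a B cell receptor subunit, was found in 72.3% of its 274 PEP-WT and 70.5% of its 176 PEP-619WW barcodes, the plasma cell gene Jchain in 59.1% and 66.5%, and the dendritic cell factor Zbtb46 in 9.49% and 11.4%. In run 2 its 48 PEP-WT and 464 PEP-619WW barcodes held Zbtb46 in 22.9% and 37.5%, Cd79a in 0 and 2.80%, and the macrophage gene C1qa in 50% and 8.19%. The run 1 monocyte gate held the neutrophil gene Ly6g in 20.4% and 31.7% of barcodes and Cd79a in 23.6% and 24.8%, and the run 1 C1q macrophage gate held Cd79a in 42.0% and 43.9%. In the run 1 monocyte gate S100a8 was in 65.5% and 81.4% of barcodes and Csf1r in 48.2% and 35.2%. In run 2 Cd79a was in 0 of PEP-WT and 2.36% of PEP-619WW monocyte barcodes, and in 0.0343% and 2.03% of C1q macrophage barcodes. The run 2 monocyte gate held Mrc1 in 63.0% and 51.0%, Hmox1 in 70.5% and 58.6%, Ly6c2 in 11.8% and 44.9% and Ccr2 in 52.6% and 86.3% of barcodes. Monocyte is thus the name of a gate here, and its values are not those of monocytes alone. The macrophages of the runs differed, since the resident macrophage gene Folr2 was in 0 and 0.405% of C1q macrophage barcodes of run 1 and in 44.7% and 23.1% of those of run 2. The run 1 plasma gate, set by Mzb1 alone, also held B cell transcripts. Its share with Ms4a1 was 61.2% in PEP-WT and 45.7% in PEP-619WW, and that with Cd79a 91.3% and 84.2%. For the plasma cell genes the shares were 72.2% and 86.2% with Jchain and 37.0% and 47.1% with Sdc1. Mzb1 itself was in 69.8% and 78.0% of the run 1 B class. Levels, ratios and shares of the plasma class are thus not those of plasma cells alone. No doublet caller was run and barcodes in more than 1 class were kept, so these shares bear on the results of each gate.

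The summed level of H2-Ab1, H2-Eb1 and Cd74, called the core level here, was expressed as counts per 1000000 UMIs of a class (CPM). H2-Aa was left out of it because the Flt3/H2-Aa gate uses that gene. In run 1 the order of the core level was the same in both genotypes. B barcodes came first, at 13691 CPM in PEP-WT and 11632 in PEP-619WW, followed by the Flt3/H2-Aa gate at 10769.6 and 8967, and C1q macrophages at 9492 and 7840.3. Monocytes, at 6187 and 5287, and plasma barcodes, at 6152 and 4229.8, came last, and in PEP-WT the counting intervals of these lowest classes overlapped. Barcodes of cells that should lack the pathway gave a background of 1509 and 426 CPM in neutrophils, 692 and 613 in CD4 T cells and 355 and 321 in erythroid barcodes. Of the neutrophil barcodes 74.3% and 75.3% also met the rule of a studied class, so their background is not separate from those classes. For CD4 T barcodes these shares were 3.06% and 6.67%, and for erythroid barcodes 1.03% and 5%. In run 2 the Flt3/H2-Aa gate was the highest class in both genotypes, at 20638 in PEP-WT and 22300.1 in PEP-619WW. The place of this gate in either run follows in part from its minimum of H2-Aa UMIs, since the core genes vary together with H2-Aa, and is not a finding about dendritic cells. Monocytes followed in PEP-WT at 6909 and C1q macrophages were lowest at 3228, whereas in PEP-619WW B barcodes stood at 16213, monocytes at 12744 and C1q macrophages at 12388. The run 2 CD4 T barcodes of PEP-619WW could not serve as a background, since they had a core level of 5707 CPM and 47.1% of them held Lyz2.

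**Figure D1:**
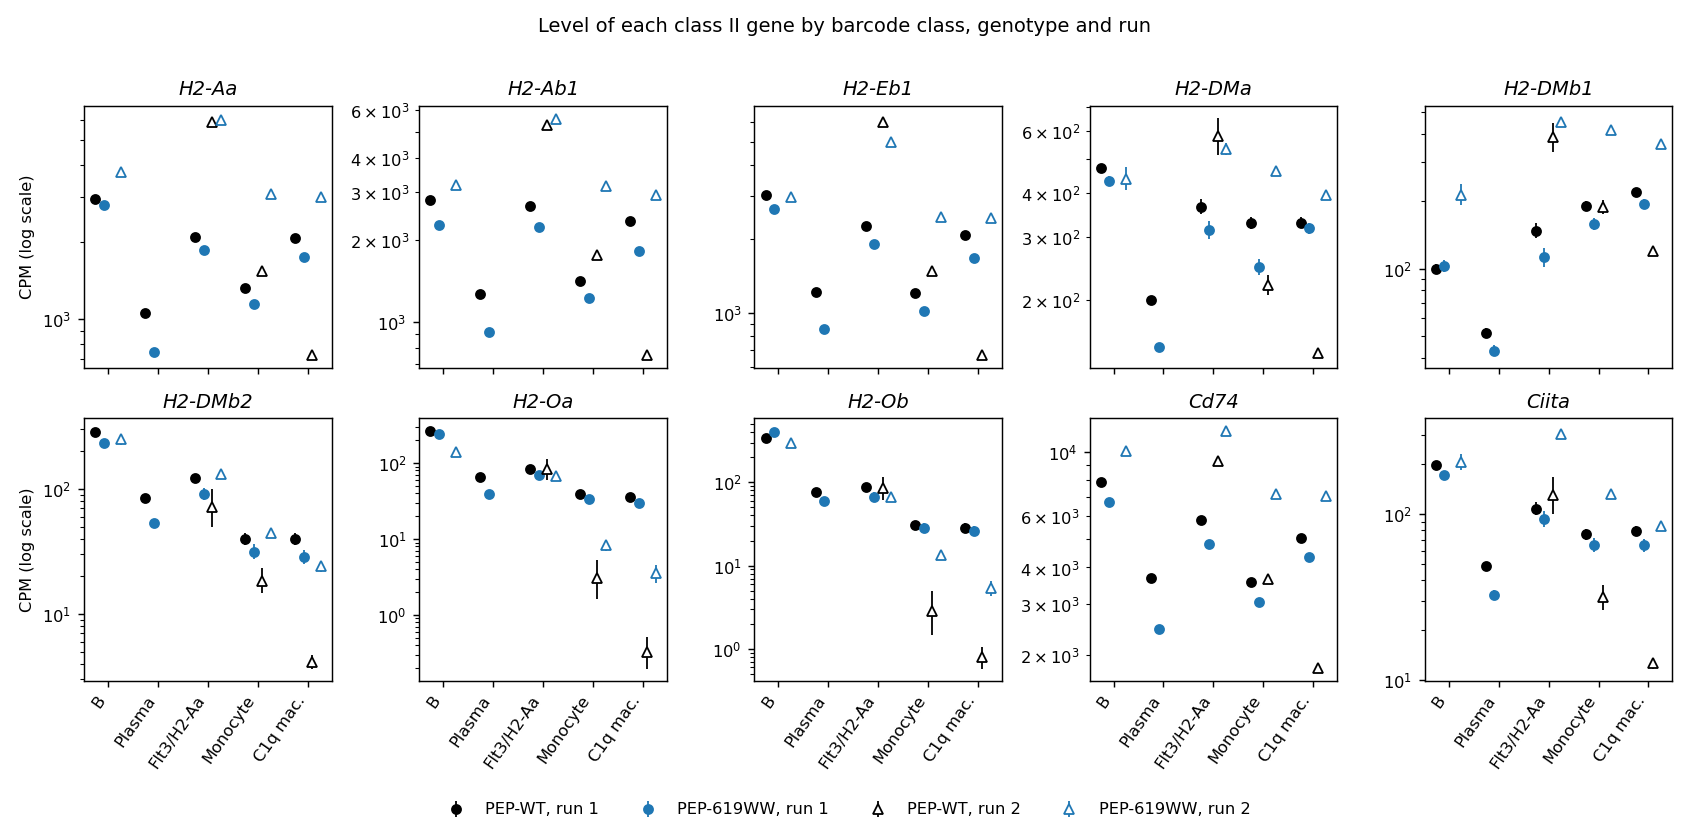
CPM of each of the 10 genes (log scale, own scale per gene) in the 5 barcode classes, for PEP-WT (black) and PEP-619WW (blue) in run 1 (filled circles) and run 2 (open triangles). Bars are 95% counting intervals. In C1q macrophages the run 2 PEP-WT library is the lowest of the 4 libraries for every gene, for example 724 CPM for H2-Aa against 1754 to 2987 in the others.

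B barcodes of PEP-619WW held slightly less of most class II transcripts than those of PEP-WT in run 1. The core level had a log2 ratio of PEP-619WW over PEP-WT of -0.24 (interval -0.25 to -0.22), over 5515 PEP-WT and 2313 PEP-619WW barcodes. Of the 10 members, 8 had log2 ratios below 0 and 0 were past 1.5-fold, the limit used here, whereas 7.19% of all 9697 genes with at least 100 UMIs were past it. Over the members the median log2 ratio was -0.16, and over all genes read it was 0.07. Of 22 other pathway genes with enough UMIs, 10 were below 0 and 12 above. Cd74, the gene with the most UMIs of the pathway, stood at 7865 CPM in PEP-WT and 6704 in PEP-619WW (log2 ratio -0.23), and H2-Aa at 2954 and 2779.6 (log2 ratio -0.09). The lowest ratios of the members were those of H2-Ab1 at -0.30 and H2-DMb2 at -0.29. H2-Ob, the DO beta chain gene, went the other way, at 341 CPM in PEP-WT and 407 in PEP-619WW (log2 ratio 0.25, interval 0.19 to 0.31), and its partner H2-Oa stood at 262 and 239.6 (log2 ratio -0.13). H2-DMb1 was at 0.04, and turned to -0.04 when libraries were scaled by the median of gene ratios. Markers of other cells differed with genotype in these barcodes. Neutrophil markers (S100a8, S100a9 and Ly6g) summed to 1497 CPM in PEP-WT and 3407 in PEP-619WW, Jchain was in 18.9% and 32.3% of barcodes and the globin gene Hbb-bs in 41.7% and 11.7%, and their part in the result was not tested. Median of ratios scaling shifts B barcodes by 0.08, and under it the share of all past-limit genes that were higher moved from 65.4% to 47.9%.

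Plasma barcodes, a class that also held B cell transcripts, were lower in PEP-619WW for each of the 10 members in run 1. Cd74 stood at 3674 CPM in PEP-WT and 2454 in PEP-619WW (log2 ratio -0.58), and Ciita at 48.9 and 32.6 (log2 ratio -0.58, interval -0.70 to -0.46). H2-Oa, from 65.5 to 39.2 CPM (log2 ratio -0.74), and H2-DMb2, from 84.8 to 53.1 (log2 ratio -0.68), were past 1.5-fold, 2 of 10 members against 6.86% of all genes in either direction and 3.44% lower. Members had a median log2 ratio of -0.51 and all genes read of -0.01. Of 23 other pathway genes, 14 were below 0 and 9 above. The core log2 ratio was -0.54 (interval -0.55 to -0.53). Markers of other cells moved with these values. Neutrophil markers summed to 873 CPM in PEP-WT and 1577 in PEP-619WW, S100a8 was in 18.3% and 47.5% of plasma barcodes, Hbb-bs in 53.5% and 19.7% and Jchain in 72.2% and 86.2%, and their part in the result was not tested. The 5 B cell markers summed to 1724 CPM in PEP-WT and 1274 in PEP-619WW, and 38.8% and 54.3% of plasma barcodes had no UMI of Ms4a1. Within those 915 and 1028 barcodes the core levels were 2852 and 2396 CPM (log2 ratio -0.25), H2-DMb2 was at -0.12 (interval -0.44 to 0.21) and H2-Oa at -0.03 (interval -0.40 to 0.35), neither past the limit. Cd74 had a log2 ratio of -0.36 (interval -0.38 to -0.33) there, at 1799.9 and 1407 CPM, whereas H2-Ab1 was at -0.08 and H2-Eb1 at -0.10. H2-DMa was at 0.03 (interval -0.10 to 0.15) and H2-DMb1 at 0.04 (interval -0.15 to 0.23). Not every member was thus lower in PEP-619WW in barcodes without Ms4a1.

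The Flt3/H2-Aa gate gave small core differences of opposite sign. Its minimum of 10 UMIs of H2-Aa, itself a member, held in both genotypes, and the core genes vary together with H2-Aa. The genotype ratios, member counts and signs in this gate therefore follow in part from its rule. In run 1 the core log2 ratio was -0.26 (interval -0.28 to -0.24), all 10 members were below 0 and 0 were past the limit, against 9.25% of all genes. The median log2 ratio of the members was -0.26, beside -0.07 for all genes. Of 21 other pathway genes with enough UMIs, 15 were also below 0, so a sign below 0 was not particular to the members. Markers of other cells differed with genotype in this gate of run 1. Plasma markers summed to 3944 CPM in PEP-WT and 6179 in PEP-619WW. Neutrophil markers summed to 2007 and 464 CPM, but the shares of barcodes holding them did not all go that way. S100a8 was in 27.0% and 43.8% of barcodes, S100a9 in 30.3% and 47.2% and Ly6g in 4.38% and 1.70%. Hbb-bs was in 58.8% and 19.3% of barcodes, and the part of these markers in the result was not tested. The values also differed by the presence of B lineage transcripts, whose part was not tested further. Among barcodes with Cd79a, 198 and 124, the core log2 ratio was -0.39, and among the 76 and 52 without it the ratio was 0.04 (interval 0.00 to 0.07), at 14745 and 15122 CPM. In the 40 barcodes per genotype with no UMI of Cd79a, Ms4a1, Cd3e, Ly6g or C1qa it was 0.22. In run 2 the core log2 ratio was 0.11 (interval 0.08 to 0.14), and -0.0055 in barcodes that met no other class rule. Ciita, from 130.5 CPM in PEP-WT to 304 in PEP-619WW (log2 ratio 1.22, interval 0.85 to 1.61), and H2-DMb2, from 71.6 to 130.8 (log2 ratio 0.87), were past the limit, 2 of 10 against 33% of all genes in either direction and 29.4% higher. The members' median of 0.05 was below the median of all genes, 0.28. Macrophage and melanocyte markers differed with genotype in this gate of run 2, with C1qb in 56.2% of its barcodes for PEP-WT against 10.99% for PEP-619WW, C1qa in 50% and 8.19%, and the 5 melanocyte genes at 37.9 and 7.71 CPM in sum, and their part in the result was not tested. The PEP-WT values rest on 48 barcodes with 62 UMIs of Ciita and 34 of H2-DMb2. H2-Eb1 was lower, at 6027 and 4999.8 CPM (log2 ratio -0.27), while H2-Aa was level at 5884 and 5983, although its level follows in part from the gate.

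In the monocyte gate, which also held barcodes with transcripts of other cells, the runs disagreed. Run 1 gave 1069 PEP-WT and 838 PEP-619WW barcodes, a core log2 ratio of -0.23 (interval -0.25 to -0.21), all 10 members below 0 and 0 past the limit against 9.14% of all genes. Members had a median log2 ratio of -0.24, beside -0.10 for all genes. Of 23 other pathway genes, 20 were also below 0 here, so a sign below 0 was not particular to the members. H2-DMa had the lowest ratio, from 328 to 247 CPM (log2 ratio -0.41). Neutrophil markers differed with genotype in this gate, at 36769.5 CPM in PEP-WT and 59805.8 in PEP-619WW for the sum of S100a8, S100a9 and Ly6g. The core log2 ratio was -0.15 (interval -0.17 to -0.12) in barcodes without Cd79a and -0.35 in those with it. In barcodes with Ccr2, the chemokine receptor of inflammatory monocytes, and fewer than 5 UMIs of S100a8, 397 and 173 in number, the core levels were 7620.0 and 7778 CPM and the log2 ratio was 0.03. In the 582 and 351 barcodes with no UMI of Cd79a, Ms4a1, Cd3e or Ly6g it was 0.15, so the run 1 direction in this class was kept in both Cd79a groups and turned in these last selections.

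In the run 2 monocyte gate all 10 members were higher in PEP-619WW, over 817 and 3089 barcodes. Of these members 10 of 10 were past the limit, against 28.3% of all genes in either direction and 23.8% higher. H2-Oa and H2-Ob reached 100 UMIs only through PEP-619WW, where they were high, so that their passing the limit was bound to follow. Of the 8 members that would have met the minimum at the lower of their levels 8 were higher, against 20.2% of all such genes. H2-Aa stood at 1548 CPM in PEP-WT and 3080.0 in PEP-619WW (log2 ratio 0.99), H2-Ab1 at 1765 and 3151 (0.84), H2-Eb1 at 1479 and 2452 (0.73) and Cd74 at 3664 and 7140.3 (0.96). The regulator gene Ciita stood at 31.8 and 131.6 CPM (log2 ratio 2.05, interval 1.80 to 2.31), and its interval lay above those of the chains. H2-DMa stood at 219.9 and 461 CPM (log2 ratio 1.07) and H2-DMb1 at 189.3 and 416 (log2 ratio 1.14). H2-Ob, at 2.85 and 13.3 CPM, had a log2 ratio of 2.22 on 12 and 254 UMIs. The median log2 ratio was 1.10 over the members, a value that H2-Oa and H2-Ob raise, and 0.25 over all genes read. H2-Oa and H2-Ob also add no support to the following count. With median of ratios scaling, which lowers each log2 ratio by 0.19, 9 of 10 members were past the limit with H2-Eb1 just inside it. That scaling moved the share of past-limit genes that were higher from 84.0% to 64.4%. Markers of other cells differed with genotype in this gate too. The 5 melanocyte genes summed to 329.8 CPM in PEP-WT and 12.6 in PEP-619WW, C1qb was in 54.0% and 18.7% of barcodes, Folr2 in 14.7% and 3.98% and the monocyte gene Ly6c2 in 11.8% and 44.9%. The 5 B cell markers summed to 12.6 and 40.6 CPM in the same order, and Flt3 was in 0.612% and 3.88% of barcodes. The part of these markers in the result was not tested beyond the following selection. Among barcodes with Ccr2 and fewer than 5 UMIs of S100a8, which were 50.9% of PEP-WT and 79.8% of PEP-619WW monocytes, the core log2 ratio was 0.53 (9167 and 13229 CPM), below 1.5-fold, with H2-Ab1 at 0.48 and H2-Eb1 at 0.39 also inside the limit, and that of Ciita was 1.69 (interval 1.42 to 1.99).

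C1q macrophages showed the widest gap between the runs among the 3 classes compared in both. In run 1 they numbered 598 and 494, the core log2 ratio was -0.28 (interval -0.29 to -0.26), and 0 of 10 members were past the limit, against 7.07% of all genes. The median log2 ratio of the members was -0.25, beside -0.02 for all genes. Of 23 other pathway genes, 12 were below 0 and 11 above. All 10 ratios lay between -0.48 for H2-DMb2 and -0.05 for H2-DMa. H2-Ab1 stood at 2343 CPM in PEP-WT and 1827 in PEP-619WW, and Cd74 at 5069 and 4336. Among barcodes without Cd79a the core log2 ratio was -0.12, and among those with it -0.43. In this gate S100a8 was in 34.3% of barcodes for PEP-WT and 60.5% for PEP-619WW, Jchain in 50.8% and 67.0% and Hbb-bs in 61.7% and 22.5%. By summed level the neutrophil markers were close, at 2945 and 2805 CPM, as were the plasma markers, at 7053 and 6884. The part of these markers in the result was not tested. In run 2, over 5839 PEP-WT and 1968 PEP-619WW barcodes, each of the members was higher in PEP-619WW. H2-Aa stood at 724 CPM in PEP-WT and 2987 in PEP-619WW (4.13-fold), H2-Ab1 at 752 and 2920.3 (3.88-fold), H2-Eb1 at 669.7 and 2438 (3.64-fold) and Cd74 at 1806 and 7030.2 (3.89-fold). Ciita stood at 12.6 and 85.5 CPM, 6.77-fold higher in PEP-619WW. Its PEP-WT level was not shown to stand above that of cells that should lack the pathway. The peptide editing genes followed in the same direction, with H2-DMa at 141.4 and 394 CPM (2.78-fold), H2-DMb1 at 120.1 and 361 (3.01-fold) and H2-DMb2 at 4.15 and 24.2 (5.83-fold). The differences of H2-DMa and H2-DMb1 were smaller than those of the chains and that of H2-DMb2 was larger, by counting intervals that did not overlap. H2-Oa, with 19 and 56 UMIs, was under the minimum of 100, and H2-Ob, with 46 and 85, met it only through PEP-619WW. The other 8 members, which would have met it at the lower of their levels, were all past the limit and higher, against 16.9% of all such genes. Of all genes with 100 UMIs, 29.5% were past it in either direction and 17.7% higher. With H2-Ob, the median log2 ratio over 9 members was 1.96, beside 0.11 over 10965 genes, and the core log2 ratio was 1.94 (interval 1.93 to 1.95). Median of ratios scaling lowered each value by 0.14 and kept 9 of 9 past the limit. H2-Ob is among the 9 and adds no support, since it met the minimum only through PEP-619WW. With that scaling, the share of past-limit genes that were higher moved from 60.1% to 46.2%.

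**Figure D2:**
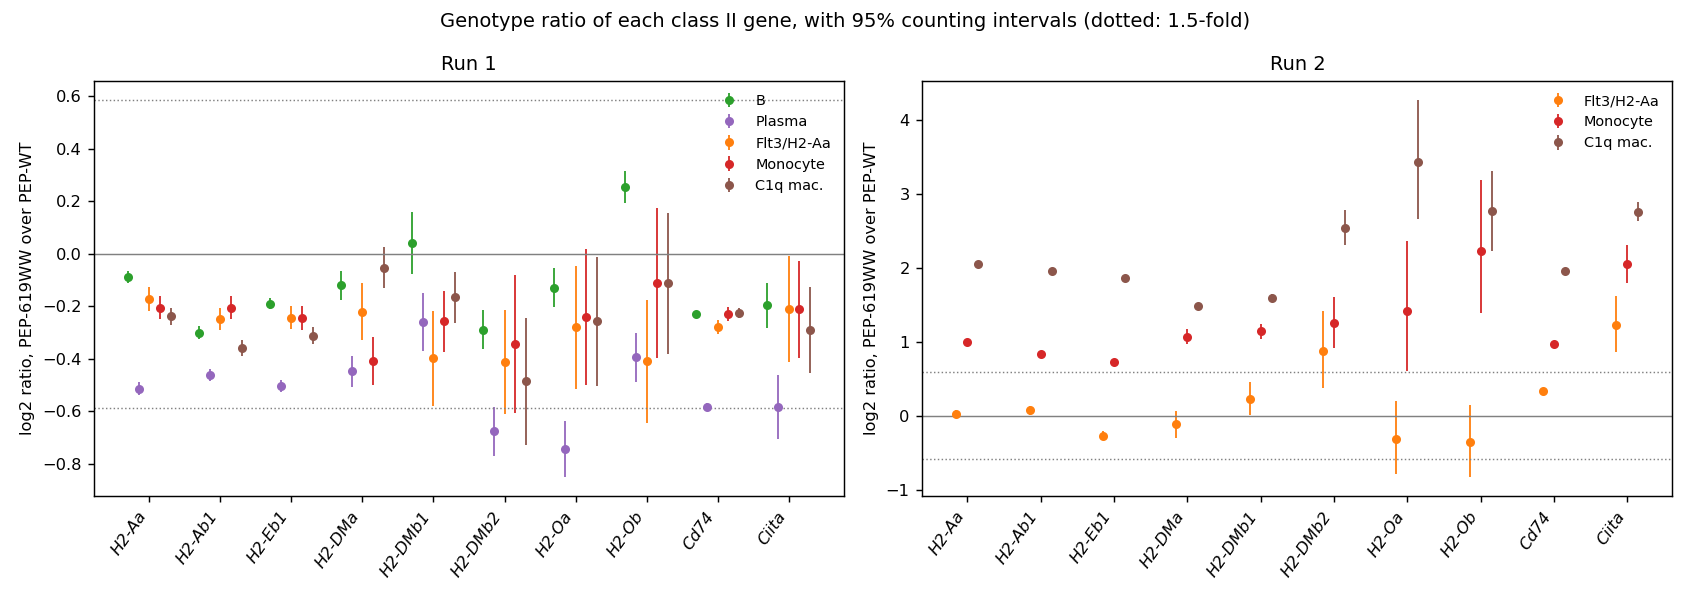
log2 ratio of PEP-619WW over PEP-WT for each gene and barcode class in run 1 (left) and run 2 (right, with a wider axis), with 95% counting intervals as bars and dotted lines at 1.5-fold. In run 1 only H2-DMb2 and H2-Oa in plasma barcodes pass the lower line, and in run 2 every monocyte and C1q macrophage value lies above the upper line. H2-Oa of run 2 C1q macrophages is drawn although it has under 100 UMIs. H2-Oa and H2-Ob of run 2 monocytes and H2-Ob of run 2 C1q macrophages reached 100 UMIs only through PEP-619WW.

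The distribution over single barcodes was read after each barcode had been thinned to 1000 UMIs, because the libraries differed in depth, with barcodes of fewer UMIs left out (136 PEP-WT and 31 PEP-619WW C1q macrophages of run 2). In run 2 C1q macrophages the share of barcodes with no UMI of H2-Ab1, H2-Eb1 or Cd74 was 39.8% for PEP-WT, with an interval of 38.5 to 41.1%, against 11.5% for PEP-619WW, with an interval of 10.1 to 12.96%. Without thinning it was 12.9% against 4.12%. At least 10 such UMIs were found in 13.2% and 53.2% of barcodes, without thinning in 46.7% and 82.2%. In run 1 the shares with at least 10 were 49.4% and 42.5%, so that PEP-WT of run 2 stood below the other 3 libraries.

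Among thinned monocytes of run 2, 24.0% in PEP-WT and 44.7% in PEP-619WW had at least 10 core UMIs, and 33.7% and 23.6% had 0. The medians were 2 and 7 UMIs. In run 1 both medians were 2, and 23.2% and 17.9% of monocytes had at least 10. Run 1 B barcodes had medians of 15 in PEP-WT and 12 in PEP-619WW, with at least 10 core UMIs in 83.2% and 66.8%. In cells that should lack the pathway, 70.4% and 79.8% of run 1 neutrophil barcodes and 82.3% and 83.3% of CD4 T barcodes had no core UMI at this depth. At most 2.51% had 10 or more. Most of these neutrophil barcodes also met the rule of a studied class. In run 2 the PEP-WT erythroid barcodes had no core UMI in 90.3% (interval 74.2 to 97.96%) of the 31 that could be thinned. They had 10 or more in 6.45% (interval 0.791 to 21.4%). C1qb was in 43.9% and C1qa in 24.4% of these erythroid barcodes before thinning, so they were not free of macrophage transcripts. The 18 thinned PEP-619WW neutrophil barcodes of run 2 had no core UMI in 38.9% (interval 17.3 to 64.3%). The share of PEP-WT C1q macrophages of run 2 with no core UMI, 39.8%, was below the run 1 and erythroid values and near that of the run 2 neutrophils.

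**Figure D3:**
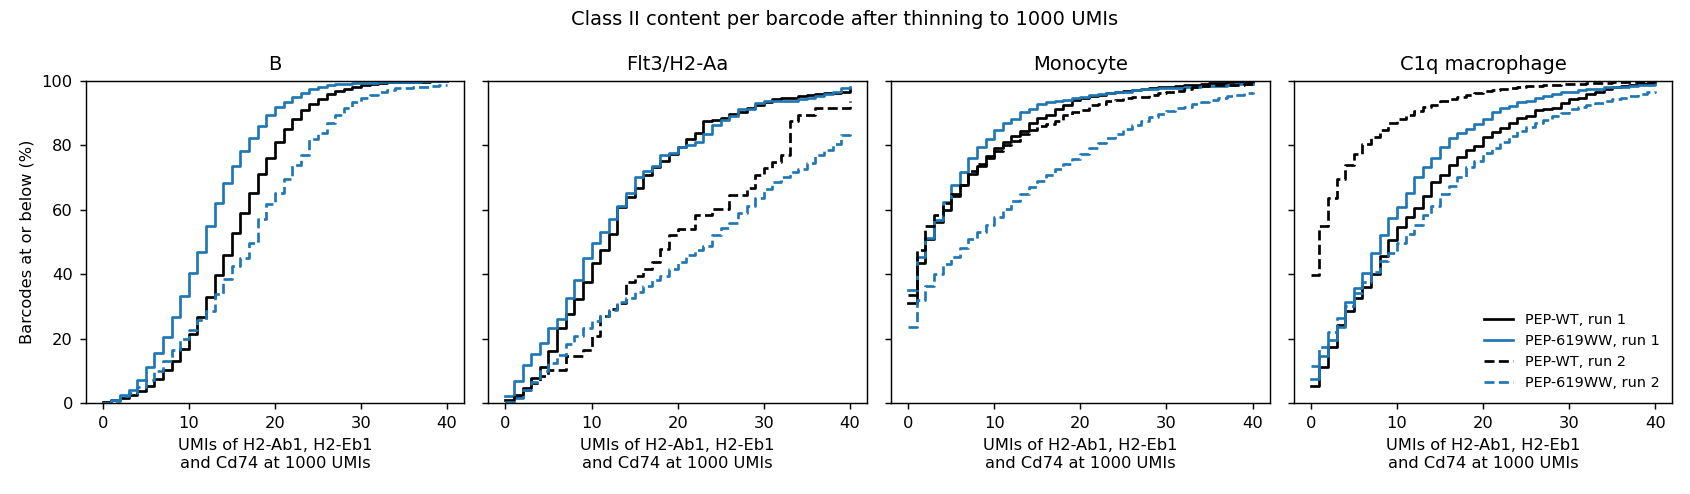
Cumulative share of barcodes (vertical axis, percent) with up to a given number of UMIs of H2-Ab1, H2-Eb1 and Cd74 (horizontal axis) after thinning to 1000 UMIs, for PEP-WT (black) and PEP-619WW (blue) in run 1 (solid) and run 2 (dashed). Among C1q macrophages the run 2 PEP-WT curve starts at 39.8% with 0 UMIs, whereas the other libraries start between 5.37% and 11.5%.

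The C1q macrophages of the run 2 libraries differed in makeup as well as in class II level. Ccr2 was found in 25.8% of PEP-WT macrophages and 82.3% of those of PEP-619WW, Folr2 in 44.7% and 23.1%, and Vcam1 in 40.4% and 5.79%, while Mrc1 was in 91.2% and 85.7%. Median depth was 8057 and 6874 UMIs. The 5 melanocyte genes together had 129.8 CPM in PEP-WT and 22.4 in PEP-619WW. Ly6c2 was in 3.84% and 33.0% of barcodes and the T cell gene Cd3e in 0.394% and 6.35%, T cell markers summed to 3.83 and 104.3 CPM and neutrophil markers to 194.6 and 475, and their part in the result was not tested. Within strata set after the data had been seen, PEP-619WW was higher in each. Barcodes with Ccr2, 1504 and 1619 in number, had core levels of 6886 and 13214 CPM (log2 ratio 0.94). Those without Ccr2, 4335 and 349, had 1876 and 6613 (log2 ratio 1.82). Barcodes with Folr2 had 1868 and 9017 CPM (log2 ratio 2.27), and those without it 5122 and 13606 (log2 ratio 1.41). In each genotype, core levels were higher with Ccr2 than without it and lower with Folr2 than without it. Ciita log2 ratios in the same strata were 1.69, 1.98, 2.90 and 2.19. How much of the difference between the libraries comes from their makeup was not tested further, and with 1 library per genotype a difference of genotype and a difference of library cannot be told apart.

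**Figure D4:**
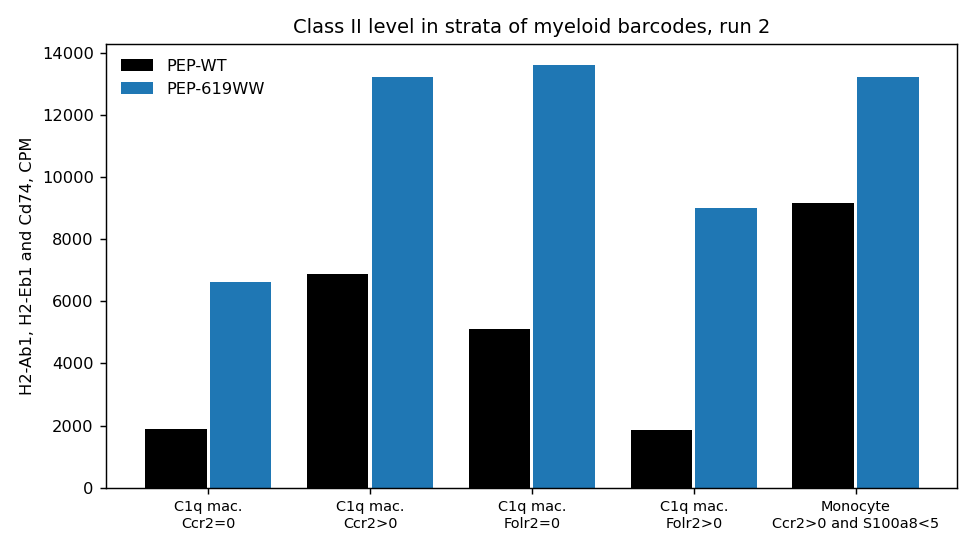
Core level (H2-Ab1, H2-Eb1 and Cd74 CPM, axis from 0) in run 2 strata of C1q macrophages and monocytes, PEP-WT in black and PEP-619WW in blue, 1 library each, with no error bars drawn. PEP-619WW is higher in all 5 strata, by the least in monocytes with Ccr2 and few S100a8 UMIs (9167 and 13229).

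Ciita was set against the chains it controls as UMIs per 1000 UMIs of H2-Ab1. In run 1 this ratio was close in both genotypes, at 71.1 in PEP-WT and 76.3 in PEP-619WW for B barcodes, 38.7 and 35.5 for plasma barcodes, 53.8 and 53.5 for monocytes and 33.9 and 35.5 for C1q macrophages. In run 2 it was higher in PEP-619WW in each class compared, at 24.6 and 54.7 in the Flt3/H2-Aa gate, 18.0 and 41.8 in monocytes and 16.8 and 29.3 in C1q macrophages. At least 1 Ciita UMI was in 7.40% of PEP-WT and 29.6% of PEP-619WW C1q macrophages of run 2, compared with 4.80% and 2.78% of run 1 CD4 T barcodes at medians of 4025 and 6135 UMIs. The macrophage medians were 8057 and 6874 UMIs and these shares were not thinned. They therefore do not show that Ciita in PEP-WT macrophages stood above the CD4 T background.

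The proportions of the chains and the invariant chain were compared as UMIs of 3′ tags, which do not scale with transcript length. Per 100 UMIs of H2-Ab1, H2-Aa had 79.1 to 122 UMIs over all classes and libraries with at least 20 barcodes of the 5 classes, and H2-Eb1 had 77.8 to 117. Cd74 had 176 to 315, with the lowest value in the run 2 PEP-WT Flt3/H2-Aa gate and the highest in run 2 PEP-619WW B barcodes. In run 2 C1q macrophages, where the levels differed most between the genotypes, Cd74 had 240.1 and 240.7 UMIs per 100 of H2-Ab1. H2-DMa differed less there than the chains did, with 18.8 UMIs per 100 of H2-Ab1 in PEP-WT and 13.5 in PEP-619WW.

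The balance of the DM beta chain genes differed between the B and plasma classes and the myeloid classes. H2-DMb1 made up 25.9% of the UMIs of H2-DMb1 and H2-DMb2 together in PEP-WT B barcodes of run 1 and 30.5% in PEP-619WW, and 37.8% and 44.8% in plasma barcodes. In C1q macrophages of run 1 it made up 84.6% and 87.3%, and in those of run 2 96.7% and 93.7%. Monocytes were at 82.6% and 83.4% in run 1 and at 91.1% and 90.4% in run 2. The Flt3/H2-Aa gate was between these in run 1, at 54.8% and 55.1%, where most of its barcodes held Cd79a, and at 84.4% and 77.6% in run 2. The order of B, plasma, Flt3/H2-Aa and myeloid barcodes was the same in both genotypes of run 1. The genes are close copies, and 52 of 411 stretches of 90 bases in the last 500 bases of the H2-DMb1 transcript also occur in an H2-DMb2 transcript, so that reads of those stretches match both genes. In the last 500 bases of each of the 3 H2-DMb2 transcripts 0 of 411 stretches occur in an H2-DMb1 transcript, so shared stretches near the 3′ end were found for H2-DMb1 only.

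**Figure D5:**
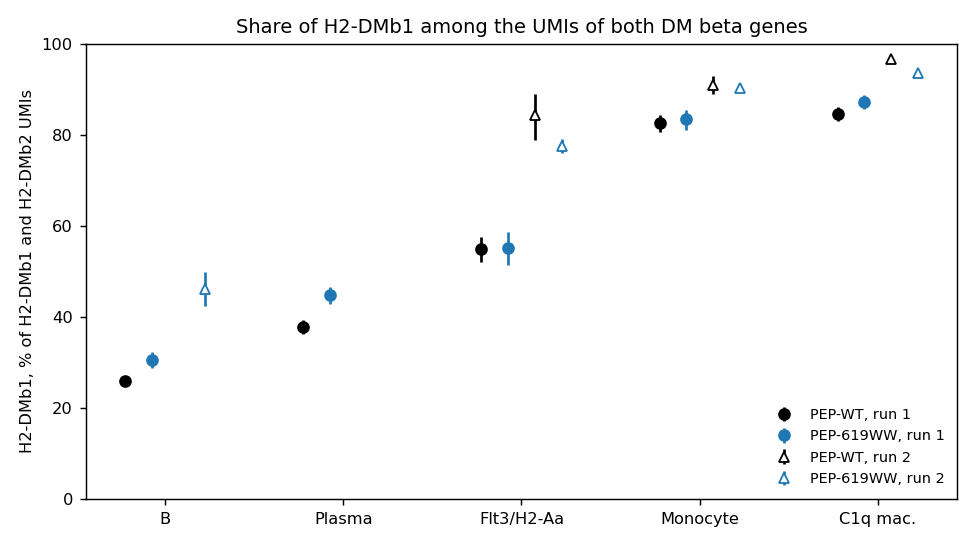
Share of H2-DMb1 among the UMIs of H2-DMb1 and H2-DMb2 (percent, axis from 0 to 100) by barcode class, genotype and run, with 95% counting intervals. B barcodes lie between 25.9% and 46.1%, plasma barcodes at 37.8% and 44.8%, and monocytes and C1q macrophages between 82.6% and 96.7%.

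The DO genes were highest in B barcodes in each library with at least 20 of them. Per 100 UMIs of H2-DMa, H2-Oa had 55.8 UMIs in PEP-WT and 55.5 in PEP-619WW B barcodes of run 1, and H2-Ob had 72.7 and 94.2. Plasma barcodes had 32.8 and 26.7 for H2-Oa. Run 1 C1q macrophages had 10.7 and 9.33, and run 2 C1q macrophages 0.231 and 0.896. B lineage transcripts were present in the run 1 myeloid gates, and H2-Ob followed them. In run 1 monocytes H2-Ob stood at 70.8 and 66.7 CPM in barcodes with Cd79a and at 8.84 and 7.39 in those without it. In run 1 C1q macrophages the values were 37.6 and 36.1 with Cd79a and 11.4 and 8.06 without it. H2-Oa in C1q macrophages differed less by Cd79a, at 36.2 and 32.4 with it and 33.8 and 24.5 without it.

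Of 23 further genes of the pathway that were measured, covering regulators, proteases and turnover genes, between 1 and 4 passed 1.5-fold in each class of run 1. In B barcodes 1 of 22 with enough UMIs was higher, the protease gene Ctsl at 10.5 and 18.2 CPM (log2 ratio 0.79), and 1 was lower, Cd83 at 87.2 and 57.1 (log2 ratio -0.61), whose product protects surface class II from turnover, against 7.19% of all genes in either direction. Cd83 was also past the limit and lower in plasma barcodes (-1.02), the Flt3/H2-Aa gate (-1.09) and C1q macrophages (-0.87) of run 1. In run 2 it was inside the limit, at -0.37 in the gate, and had the opposite sign in monocytes (0.52, interval 0.27 to 0.77) and C1q macrophages (0.44, interval 0.32 to 0.56). In plasma barcodes 1 of 23 was lower, against 6.86% of all genes past the limit in either direction, and in C1q macrophages 1 of 23 was lower, against 7.07%. In the Flt3/H2-Aa gate 2 of 21 were higher and 2 lower, against 9.25%, and in monocytes 1 of 23 was higher and 2 lower, against 9.14%. The RFX subunit gene Rfx5 in run 1 monocytes had 12.99 and 6.51 CPM (log2 ratio -0.996, on 102 and 41 UMIs, the minimum being met only through PEP-WT).

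In run 2 monocytes 6 of 22 further genes were higher and 4 lower, where 23.8% of all genes were higher and 28.3% past the limit either way, so the number higher was near the background, and 4.52% were lower. Those higher were Irf1 (log2 ratio 1.06), an interferon-induced regulator of Ciita, Irf4, Irf8 (0.71), Prdm1, Rfx5 and March1, and those lower were the lysosomal protease genes Ctsl (-2.24), Ctsb (-1.004), Ctsd (-1.11) and Lgmn (-0.68). Irf4 and Rfx5 met the minimum of UMIs only through PEP-619WW. Irf8 had gone the other way in run 1, where it was past the limit and lower in monocytes, at 366 and 244 CPM (log2 ratio -0.59), and in the Flt3/H2-Aa gate, at 609.8 and 406 (-0.59). In run 2 C1q macrophages 4 of 22 were higher, near the 17.7% of all genes, with Irf1 at 0.95, Irf4 at 2.46, Prdm1 at 1.46 and March1, a ubiquitin ligase that removes surface class II, at 0.82. The 3 lower, where 11.8% of all genes were lower, were Ctsl, at 1982 CPM in PEP-WT and 779 in PEP-619WW, Ctsb at 4709 and 2959.7, and Ctsd at 3390.4 and 1705. In the run 2 Flt3/H2-Aa gate 3 of 18 were higher and 4 lower, where 29.4% of all genes were higher and 3.56% lower, with PEP-WT read on 48 barcodes. Irf4 had log2 ratios of 1.01 in run 1 and 1.34 in run 2 in the Flt3/H2-Aa gate, the latter on 4 and 102 UMIs with an interval from -0.06 to 3.24, and of 1.06 and 2.79 in monocytes. It was the only gene of the list past the limit the same way in both runs, but in run 2 it met the minimum of UMIs in these gates only through PEP-619WW, so this does not show that the runs agree. Irf4 is also a plasma cell gene, and plasma markers differed with genotype in the run 1 gates, summing to 3944 CPM in PEP-WT and 6179 in PEP-619WW in the Flt3/H2-Aa gate and to 2071 and 2941 in monocytes, with Prdm1 at a log2 ratio of 1.46 in the former and -0.05 in the latter. The part of plasma transcripts in the Irf4 values was not tested.

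Of 12459 genes compared over 16 points of run 1 (8 barcode classes in 2 genotypes), the 5 whose levels followed the mean of H2-Aa, H2-Ab1, H2-Eb1 and Cd74 most closely were Lat2 (Pearson r = 0.985), Kynu (0.979), Irf8 (0.971), Cd180 (0.966) and Gm6377 (0.964). Over the 10 points of run 2 the values were 0.231, 0.853, 0.790, 0.374 and 0.854. Among the members outside that mean, H2-DMa (0.975) and Ciita (0.973) were most alike in run 1 and H2-Ob (0.827) least. The points share libraries and some barcodes, so these values are descriptions over classes and carry no test.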

How the data were processed

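The authors ran Cell Ranger on the mm10 genome (version 6.0.0 in the submitters' processing notes), and the deposited files hold its raw UMI counts, whole numbers with no normalization, for 32285 genes in 4 libraries. All deposited barcodes were kept, with no doublet caller and no filter on genes or mitochondrial share. Total UMIs per library ranged from 55504449 to 77916082. Genes were read by identifier, with 32158 matched to a symbol, and coordinates came from GENCODE (GRCm38).

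Counts were summed per class, genotype and run and divided by the class total (CPM). Genotypes were compared within a run as the log2 ratio of PEP-619WW over PEP-WT with an exact conditional binomial 95% interval, and levels and shares have exact Poisson and Clopper-Pearson intervals, for counting error only. With 1 library per genotype and run there was no replicate error and no test was made. A gene needed 100 UMIs over both genotypes to be read against the limit of 1.5-fold, and a class 20 barcodes per genotype, a minimum set after the counts had been seen. Background barcodes were neutrophils (Ly6g, no Csf1r or Cd79a), CD4 T cells (Cd3e and Cd4, no Cd8b1 or Cd79a) and erythroid barcodes (at least 50 UMIs of Hbb-bs, no Cd79a, Cd3e or Lyz2). All 10 members were described in every class, and of a list of 24 other pathway genes those past the limit the same way in both runs were to be named, with further ones named after their values were seen. H2-Ea of that list was not analysed here, and a further regulator is not reported here. The members and lists were chosen with earlier results of these data known. Alternatives comprised 9 settings and 6 strata added after the data were seen. The ratio calculation was run on simulated counts that held counting error only, so that run tells nothing about differences between mice or libraries. The work used scipy (1.17.1), numpy (2.4.6), pandas (2.3.3), matplotlib (3.10.9) and python (3.11.15).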

Additional observations from a re-analysis of the deposited data

Results flagged for a closer look

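The core class II log2 ratio of PEP-619WW over PEP-WT took opposite signs in the runs in each of the 3 classes compared in both runs. It was -0.2643 in run 1 and 0.1117 in run 2 for the Flt3/H2-Aa gate, -0.2269 and 0.8833 for monocytes, and -0.2759 and 1.9403 for C1q macrophages. These differences between runs were not tested, since each run holds 1 library per genotype. The opposite signs of the gate and of monocytes also depended on the barcodes kept. Without barcodes holding a defining gene of another lineage, the run 1 sign turned in both. With barcodes of 1 class only, the run 2 sign of the gate turned. Ratios in the gate also follow in part from its minimum of H2-Aa UMIs. In the run 2 libraries, barcodes with at least 3 of 5 melanocyte genes numbered 249 in PEP-WT and 25 in PEP-619WW, and in run 1 they numbered 0 in both.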

How the results depend on the processing

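No paired analysis was possible because only 1 library of each genotype was made per run and the labels pair no libraries by a replicate number. For the core log2 ratio, 22 of 75 alternative values stayed within the counting interval of the reported one, 53 moved beyond it and 0 values past 1.5-fold changed sign. The cause of these shifts was not tested. Values are given in the order B, plasma, Flt3/H2-Aa gate, monocyte and C1q macrophage for run 1 and then Flt3/H2-Aa gate, monocyte and C1q macrophage for run 2, for those that moved. With barcodes of 1 class only they were -0.25, -0.60, -0.38, -0.30 and -0.17, then -0.0055 (gate) and 0.83 (monocyte). Without barcodes holding a defining gene of another lineage, plasma was at -0.51, the Flt3/H2-Aa gate at 0.22, monocytes at 0.15 and C1q macrophages at -0.19 in run 1, and then 0.035, 0.91 and 1.99, so that the run 1 sign turned in the gate and in monocytes. Without immunoglobulin and hemoglobin genes in the total, run 1 plasma, gate and C1q macrophage values were -0.49, -0.19 and -0.24. With the mean of per-barcode levels they were -0.32, -0.49, -0.083, -0.18 and -0.23, then 0.19 (gate) and 1.77 (C1q macrophage). With every barcode thinned to 1000 UMIs they were -0.32, -0.44, -0.081, -0.16 and -0.22, then 0.19 (gate) and 1.77 (C1q macrophage). With median of ratios scaling, B was at -0.31, the gate at -0.22, monocytes at -0.14 and C1q macrophages at -0.26, then 0.69 (monocyte) and 1.81 (C1q macrophage). Without barcodes above the 95th percentile of UMIs, B was at -0.27 and plasma at -0.48, then 0.20, 0.80 and 1.85 in run 2. A gate of Flt3 and Zbtb46 with no class II gene gave -0.11 in run 1, on 24 PEP-WT and 20 PEP-619WW barcodes, and could not be used in run 2, where PEP-WT had fewer than 20. In strata added after the data were seen, plasma without Ms4a1 was at -0.25, monocytes with Ccr2 and few S100a8 UMIs at 0.030 and 0.53, and C1q macrophages in run 1 at -0.36 with Ccr2, -0.18 without it and -0.29 without Folr2, and in run 2 at 0.94, 1.82, 1.41 and, with Folr2, 2.27. A filter on genes and mitochondrial share moved no core value beyond its interval. Of 650 alternative values of single members, 600 kept the sign of the reported one and 50 took the other, 0 of these past 1.5-fold as reported. Apart from the exceptions named next, all run 2 monocyte members and the 9 read in C1q macrophages stayed past 1.5-fold and higher under the alternatives for single members. The same held in the added strata, where no minimum of UMIs was applied. The exceptions were H2-Eb1 in monocytes with median of ratios scaling and H2-Ab1 (0.48) and H2-Eb1 (0.39) in monocytes with Ccr2 and few S100a8 UMIs. H2-Oa and H2-Ob in monocytes and H2-Ob in C1q macrophages had met the minimum only through PEP-619WW. Their staying past the limit therefore adds no support. The members past the limit in plasma barcodes numbered from 1 to 3, and 0 without Ms4a1, and those in the run 2 gate from 1 to 3 higher and 0 or 1 lower. In run 1, where 0 were past it as reported, some alternatives gave other counts. These were up to 2 higher or 1 lower in monocytes, 1 higher or 1 lower in the gate and 1 lower in C1q macrophages. The splits by Cd79a are not among these alternatives. With a minimum of 20 UMIs, 13.02% of all genes in run 1 B barcodes were past the limit, and with a limit of 2-fold 1.37%. Median of ratios scaling also moved the share of past-limit genes that were higher by over 10 percentage points in 5 of 8 comparisons: from 65.4% to 47.9% in run 1 B barcodes, from 41.8% to 53.2% in the run 1 gate, from 33.4% to 54.1% in run 1 monocytes, from 84.0% to 64.4% in run 2 monocytes and from 60.1% to 46.2% in run 2 C1q macrophages.

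Few UMIs limit the reading of H2-Oa and H2-Ob in the myeloid classes of run 2. The same holds for Ciita and H2-DMb2 in the 48 barcodes of the run 2 PEP-WT gate.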
